A study of Homo sapiens with 4 samples.

Results

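The regions described here are the CUT&RUN peaks of the histone methyltransferase ASH1L that lay deep inside genes. A peak was a member when its summit, the base with the most fragments, fell inside a protein-coding gene and more than 10 kb from every protein-coding gene start of GENCODE release 44 on GRCh37/hg19. On chromosomes 1 to 22 and X, 960 of the 3073 ASH1L peaks of DMSO-treated cells met this rule, or 31.2% (95% Clopper-Pearson interval 29.6 to 32.9), and 635 of the 1812 peaks of AS-99-treated cells, or 35.0% (32.8 to 37.3). The sequence that meets the rule covers 1105 of 2836 Mb of determined sequence, or 39.0%, so members took a smaller share of both lists than of the genome. All cells were MV4;11, a human leukemia line that carries an MLL1 fusion and for which the labels name no engineered allele, and they received for 4 days either 5 µM AS-99, an inhibitor of ASH1L, or 0.25% DMSO as the vehicle. The study profiled ASH1L and dimethylated lysine 36 of histone H3 (H3K36me2) under both treatments and asked whether the inhibitor lowers this methylation in the cells. Each of the 4 groups, 1 for each antibody under each treatment, held 1 library of 1 cell line, and no library of untargeted cutting was used to call peaks. No difference between treatments therefore has a replicate check, no p-value is given, and all intervals are 95% intervals that cover counting error or the spread over regions only.

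ASH1L is a trithorax-group enzyme that places methyl groups on H3K36 and is needed for the expression of MLL1 fusion targets in leukemia. H3K36me2 is known to cover broad stretches of gene bodies and intergenic chromatin rather than sharp points. Introns of long genes also hold enhancers and alternative promoters, which in myeloid cells are commonly bound by RUNX, ETS, C/EBP and AP-1 factors, while CTCF binds at chromatin loop anchors.

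Among the members found in both ASH1L lists, the 10 with the highest smaller −log10 p of the pair were named, and the 200 bases centred on the DMSO summit are shown for 8 of them as the intragenic DNA that was listed most clearly under both treatments. The other 2, in VPS13B and ASH2L, are named only. All are read from the + strand of GRCh37/hg19. The HFM1 window is chr1:91852865-91853064 in intron 4 of this helicase gene of meiotic recombination. Its sequence is not unique: 98.5% of the 32-base words around its summit occur more than once in the reference, as described further on. The FNDC3B window is chr3:171825005-171825204 in intron 1 of a gene for a membrane protein. The window named by its Ensembl identifier is chr10:64378972-64379171 in intron 4 of that gene, and the ERCC1 window is chr19:45959321-45959520, inside the gene of a DNA repair endonuclease subunit but outside its main transcript. DAAM1, a formin that nucleates actin, has its window at chr14:59707502-59707701 in intron 1, and UNC80, a subunit of a sodium leak channel, at chr2:210850875-210851074 in intron 61. RAB27A, a small GTPase of secretory granules, has its window at chr15:55543011-55543210 in intron 2, and LRRC74A at chr14:77330287-77330486 in intron 11. Capitals mark matches to the motifs searched on both strands: AGATAA for factors of the GATA family, CCGGAAGT and GAGGAAGT for ETS, TGTGGTT for RUNX, TTGCGCAA and TTGCNNAA for C/EBP, TGANTCA for AP-1, CACGTG for E-boxes, AGGGGGC for the CTCF core and CGCGCG for CpG runs. TTGCGCAA is contained in TTGCNNAA, and the other motifs were counted separately even where they overlapped.
HFM1: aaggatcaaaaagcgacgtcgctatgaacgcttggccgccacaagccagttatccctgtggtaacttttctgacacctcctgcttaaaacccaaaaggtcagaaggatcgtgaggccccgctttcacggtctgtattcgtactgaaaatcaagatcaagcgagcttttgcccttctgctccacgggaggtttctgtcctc
FNDC3B: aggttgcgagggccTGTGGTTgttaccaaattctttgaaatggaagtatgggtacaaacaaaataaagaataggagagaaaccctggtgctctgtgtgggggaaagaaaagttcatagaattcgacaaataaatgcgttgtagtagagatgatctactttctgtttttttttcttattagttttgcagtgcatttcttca
ENSG00000285837: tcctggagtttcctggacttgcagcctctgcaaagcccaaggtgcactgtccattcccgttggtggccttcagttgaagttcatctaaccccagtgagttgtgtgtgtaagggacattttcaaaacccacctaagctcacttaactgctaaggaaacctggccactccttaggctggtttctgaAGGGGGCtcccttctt
ERCC1: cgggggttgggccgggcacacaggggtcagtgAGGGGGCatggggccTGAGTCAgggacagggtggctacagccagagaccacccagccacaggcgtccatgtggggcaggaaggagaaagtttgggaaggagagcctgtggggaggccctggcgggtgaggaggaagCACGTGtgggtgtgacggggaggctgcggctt
DAAM1: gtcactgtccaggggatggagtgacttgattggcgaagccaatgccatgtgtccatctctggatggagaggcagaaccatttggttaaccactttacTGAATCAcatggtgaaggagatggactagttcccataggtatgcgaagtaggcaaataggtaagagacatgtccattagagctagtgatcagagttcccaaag
UNC80: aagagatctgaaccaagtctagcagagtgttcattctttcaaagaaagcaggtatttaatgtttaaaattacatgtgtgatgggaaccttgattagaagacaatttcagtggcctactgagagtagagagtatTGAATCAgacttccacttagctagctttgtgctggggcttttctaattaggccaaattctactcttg
RAB27A: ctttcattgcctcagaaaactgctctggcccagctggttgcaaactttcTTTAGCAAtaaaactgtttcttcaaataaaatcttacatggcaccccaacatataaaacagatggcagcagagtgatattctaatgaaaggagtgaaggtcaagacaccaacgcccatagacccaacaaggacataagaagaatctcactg
LRRC74A: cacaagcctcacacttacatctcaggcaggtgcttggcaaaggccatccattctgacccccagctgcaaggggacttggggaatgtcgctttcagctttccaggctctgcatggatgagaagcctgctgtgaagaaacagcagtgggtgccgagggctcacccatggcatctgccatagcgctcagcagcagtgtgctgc
The marked match is RUNX in FNDC3B, the CTCF core in the window named by its identifier, AP-1 in DAAM1 and UNC80, and TTGCNNAA read from the reverse strand in RAB27A. ERCC1 holds 3 matches, a CTCF core, an AP-1 motif and an E-box, while HFM1 and LRRC74A hold none of these letters. GC content of the 8 windows ran from 37% in FNDC3B to 67.5% in ERCC1. A match describes letters and is not a measured binding site.

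The ASH1L libraries held 19635489 (DMSO) and 15381860 (AS-99) fragments after filtering, and the H3K36me2 libraries 15584143 and 13208636. Member peaks were low and narrow. The median pileup, the number of fragments over the summit, was 16 in DMSO (10 to 235) and 15 in AS-99 (9 to 135), with a median fold enrichment over local background of 4.65 and 4.93 and a median length of 315 and 324 bp. At such heights a few fragments decide whether a region is listed, and a region listed under 1 treatment is not shown to be free of ASH1L under the other. Close to the limit of the rule, the nearest DMSO members lay 10.064 kb (PAM16), 10.116 kb (KCNIP1) and 10.157 kb (LYRM1) from a gene start with pileups of 15, 15 and 12, and the nearest peaks left out lay at 9.971 kb (RPS9), 9.961 kb (SPATA33) and 9.944 kb (FPR1) with pileups of 20, 12 and 16. In AS-99 the same positions were held by TADA3 (10.058 kb, pileup 17), C5AR1 (10.159 kb, 17) and BCL2L13 (10.264 kb, 18) inside, and by SH2D7 (9.979 kb, 13), MMRN1 (9.971 kb, 12) and PBRM1 (9.953 kb, 13) outside.

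Fewer peaks deep inside genes were listed with AS-99 than with DMSO, but peaks in GC-poor and GC-rich sequence moved in opposite directions. The ratio of AS-99 to DMSO members was 0.661 (0.597 to 0.732), beside 0.590 (0.556 to 0.625) for all ASH1L peaks. It was 0.685 (0.618 to 0.758) for distal intergenic peaks and 0.628 (0.538 to 0.733) for peaks 1 to 10 kb from a gene start. Peaks within 1 kb of a gene start fell from 741 to 262, a ratio of 0.354 (0.306 to 0.408). After scaling of the DMSO pileups to the smaller AS-99 library, 882 DMSO members were left. The ratio of members was then 0.720 (0.649 to 0.798), beside 0.643 (0.606 to 0.683) for all ASH1L peaks. Members with less than 40% GC in the 300 bp around the summit rose in number, from 127 to 199, a ratio of 1.57 (1.25 to 1.97). Members with 40% to 55% GC fell from 503 to 314, a ratio of 0.624 (0.540 to 0.720). Members with 55% GC or more fell from 330 to 122, a ratio of 0.370 (0.298 to 0.456). The 3 intervals did not overlap, and at equal depth the ratios were 1.75 (1.38 to 2.22), 0.692 (0.597 to 0.80) and 0.389 (0.313 to 0.480).

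**Figure D1:**
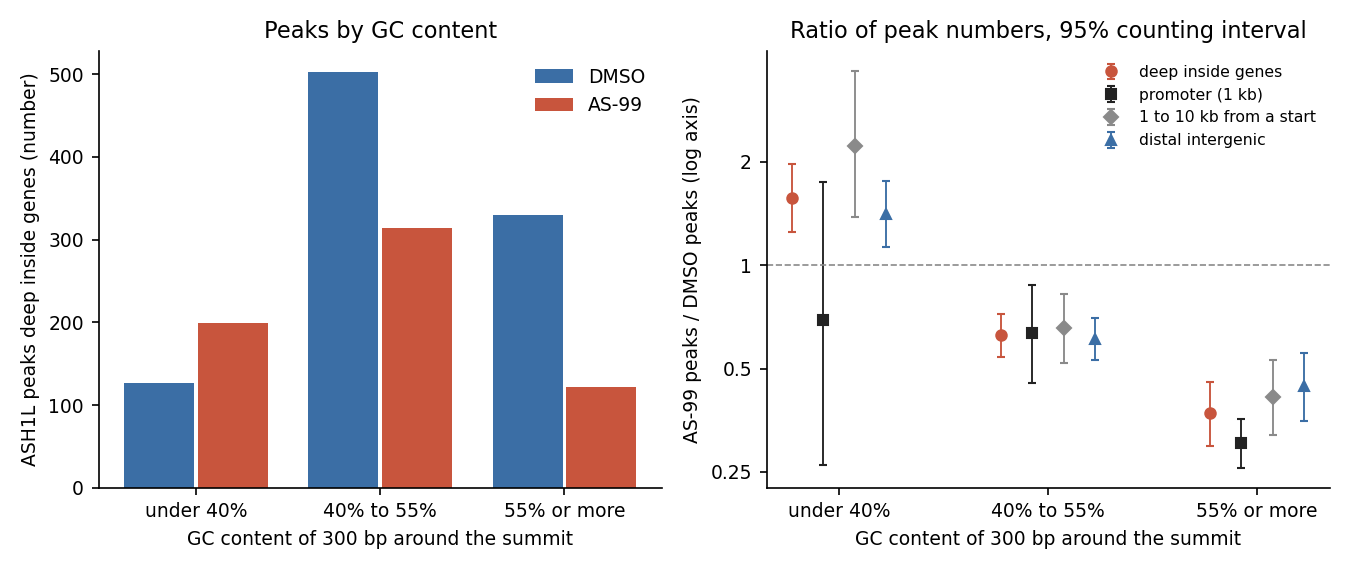
Left, the number of ASH1L peaks deep inside genes (y axis) by GC content of the 300 bp around the summit (x axis), with 1 bar per treatment. Right, the ratio of AS-99 to DMSO peak numbers on a log axis for the same GC classes in members and in the other classes of peaks, with 95% counting intervals: member numbers went from 127 to 199 below 40% GC, from 503 to 314 between 40% and 55%, and from 330 to 122 at 55% or more.

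The median GC content of members was 50.3% (49.3 to 51.0) in DMSO and 46.0% (44.7 to 47.3) in AS-99. Windows 2 kb to either side had medians of 45% and 44%, so the difference between the treatments was larger at the summits than beside them. The average window of the sequence that meets the rule had 41.0%. A GC content of 55% or more was found in 34.4% (31.4 to 37.5) of DMSO members and 19.2% (16.2 to 22.5) of AS-99 members, a difference of -15.2 percentage points (-19.4 to -10.8), beside 6.38% of all windows that meet the rule. CpG dinucleotides were present at 2.24 per 100 bp in DMSO members, 1.5 in AS-99 members and 0.979 in the average window.

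Peaks away from promoters but outside the rule showed the same order, so the split by GC content was not particular to members. Distal intergenic peaks went from 141 to 199 below 40% GC, a ratio of 1.41 (1.13 to 1.76), and from 255 to 113 at 55% or more, a ratio of 0.443 (0.352 to 0.555). Peaks 1 to 10 kb from a gene start had ratios of 2.23 (1.38 to 3.69) and 0.413 (0.319 to 0.530) in these GC classes. Peaks within 1 kb of a gene start, of which few were GC-poor, went from 13 to 9 below 40% GC, a ratio of 0.692 (0.261 to 1.75), and from 630 to 191 at 55% or more, a ratio of 0.303 (0.256 to 0.357). H3K36me2 peaks chosen by the same rule did not shift toward low GC: the median was 43.3% (42.3 to 44.3) over 541 DMSO peaks and 45% (43.7 to 46.7) over 232 AS-99 peaks. The libraries also differed in fragment size, 250 bp for DMSO ASH1L and 269 bp for AS-99 ASH1L per the file headers, and in depth. With 1 library per group, the base composition that a library favours and the treatment cannot be told apart.

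Most members lay in introns, and the DMSO list held more members at internal transcript starts and in coding exons than the AS-99 list. An internal start was the start of any annotated transcript of a protein-coding gene, coding or not, other than a gene start. One lay within 1 kb of 182 DMSO members, or 19% (16.5 to 21.6), and of 87 AS-99 members, or 13.7% (11.1 to 16.6), beside 5.62% of the sequence that meets the rule. The difference was -5.26 percentage points (-8.84 to -1.53). Members at internal starts went from 182 to 87, a ratio of 0.478 (0.366 to 0.620), and members away from them from 778 to 548, a ratio of 0.704 (0.630 to 0.787). These members were also richer in GC, with a median of 58% in DMSO against 49% away from internal starts. Within members of 55% GC or more, the ratio was 0.360 (0.245 to 0.522) at internal starts and 0.374 (0.287 to 0.485) away from them. Below 55% GC the values were 0.662 (0.448 to 0.970) and 0.834 (0.736 to 0.944), intervals that overlap. The summit lay in a coding exon for 37 DMSO members, or 3.85% (2.73 to 5.27), and for 12 AS-99 members, or 1.89% (0.98 to 3.28), a difference of -1.96 points (-3.59 to -0.230), and coding exons make up 1.90% of the sequence that meets the rule.

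Along the main transcript of each gene, intron 1 held 200 DMSO members, or 20.8% (18.3 to 23.5), and 140 AS-99 members, or 22% (18.9 to 25.5), beside 16.8% of the sequence. Introns after the second held 44.4% (41.2 to 47.6) and 45.5% (41.6 to 49.5), beside 53.8%. Members were thus more frequent per base in first introns and less frequent in later ones under both treatments. The median distance to the nearest gene start was 48.3 kb (44 to 52.5) in DMSO and 50.3 kb (45.5 to 55.1) in AS-99, and reached 946 and 1630 kb. The genes that held them were long, with a median of 145 and 154 kb.

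**Figure D2:**
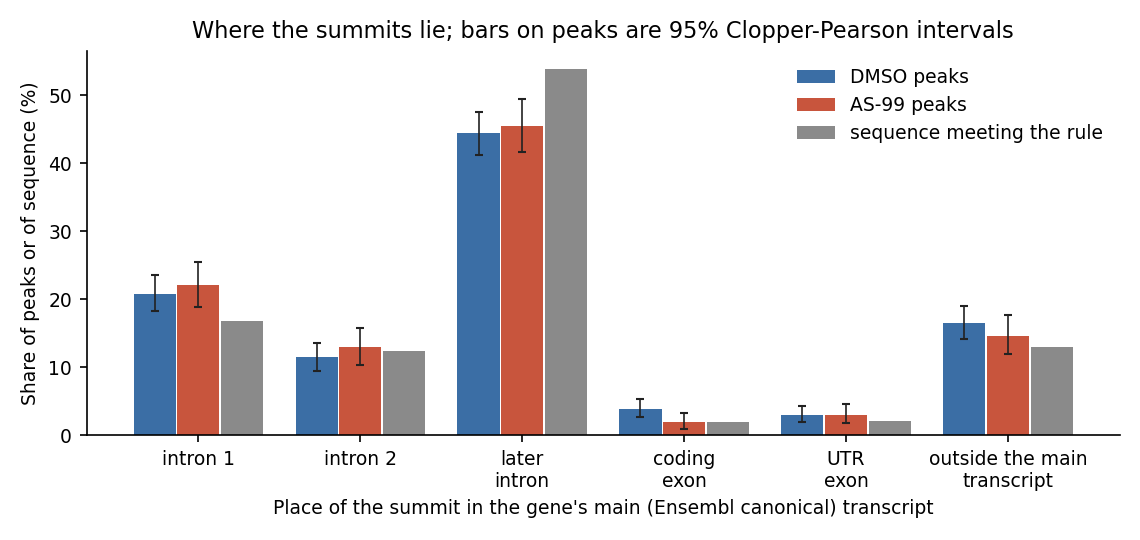
Share of members whose summit lies in each part of the main transcript (y axis, percent), with bars for DMSO, AS-99 and the sequence that meets the rule and 95% Clopper-Pearson intervals on the peaks. Intron 1 took 20.8% and 22% of members against 16.8% of sequence, and coding exons 3.85% in DMSO against 1.89% in AS-99.

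RUNX, AP-1 and ETS motifs were more frequent at DMSO members than in the surrounding sequence, whereas C/EBP and GATA motifs were not. The RUNX motif TGTGGTT was present in 10.4% (8.56 to 12.5) of the 300-bp windows, against 5.73% of all windows that meet the rule, 4.85% of those windows at the same GC content and 5.16% of windows 2 kb to the side. The AP-1 motif TGANTCA was in 14.3% (12.1 to 16.6), against 9.14% of all windows and 7.66% at the same GC content. The ETS motif GAGGAAGT was in 4.69% (3.44 to 6.22), against 1.51% and 1.67%, and the promoter-type ETS motif CCGGAAGT in 1.15% (0.573 to 2.04), against 0.132% and 0.250%. In contrast, the CTCF core AGGGGGC, at 6.46% (4.99 to 8.20), stood above 2.51% of all windows but next to the 6.53% of windows at the same GC content. The C/EBP motif TTGCNNAA, at 10.2% (8.37 to 12.3), was below the 13.3% of windows 2 kb to the side and the 15.6% of all windows, and close to 10.6% at the same GC content. The GATA motif AGATAA, at 11.3% (9.32 to 13.4), was below 16.8% and 21% and close to 12%. CpG runs (CGCGCG) were in 1.98% (1.20 to 3.07), against 0.187% of all windows and 1.00% at the same GC content. E-boxes (CACGTG) were in 5.52% (4.16 to 7.16), against 2.83% and 4.82%.

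AS-99 members had RUNX and AP-1 shares that were also above windows of the same GC content, by less. RUNX was in 8.35% (6.31 to 10.8), against 5.34% at the same GC content, and AP-1 in 11.5% (9.12 to 14.2), against 8.46%. GAGGAAGT was in 2.52% (1.45 to 4.06), against 1.61%, an interval that holds the background. The CTCF core was in 6.61% (4.81 to 8.84), here above the 4.30% at the same GC content, whereas GATA, at 16.7% (13.9 to 19.8), was next to 16.2%. At peaks within 1 kb of a gene start in DMSO the order of the motifs was another, with CCGGAAGT in 7.02%, AP-1 in 4.05% and RUNX in 3.10% of windows. Distal intergenic DMSO peaks had RUNX in 10.0% (8.19 to 12.1) and AP-1 in 16% (13.7 to 18.5), and peaks 1 to 10 kb from a gene start in 9.17% (6.64 to 12.3) and 10.8% (8.03 to 14.1), so the RUNX and AP-1 shares were not particular to members. GAGGAAGT was in 4.69% (3.44 to 6.22) of DMSO members. It was in 2.97% (1.87 to 4.46) of DMSO peaks within 1 kb of a gene start, 2.98% (1.60 to 5.04) of those at 1 to 10 kb and 2.99% (2.00 to 4.29) of distal intergenic ones. Each of these intervals overlapped that of members. Intervals of the DMSO and AS-99 members overlapped for RUNX and AP-1.

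Few members were listed under both treatments, and among DMSO peaks of 25 fragments or more a smaller share of members than of other ASH1L peaks was listed again. An AS-99 ASH1L peak overlapped 106 of 960 DMSO members by 1 bp or more, or 11.0% (9.13 to 13.2), close to the 12.5% of all DMSO ASH1L peaks. The difference was -5.63 percentage points (-8.74 to -2.52) against distal intergenic peaks. It was 1.33 points (-1.65 to 4.21) against peaks within 1 kb of a gene start, of which 9.72% were listed again. Against peaks 1 to 10 kb from a gene start, with 11.2%, it was -0.197 points (-3.98 to 3.20), so members differed from distal intergenic peaks alone. Against all other ASH1L peaks it was -2.07 points (-4.44 to 0.475), an interval that holds 0 but lay below 0 under 4 of 11 alternatives. Of the AS-99 members, 106 of 635 had a DMSO peak, or 16.7% (13.9 to 19.8), beside 21.1% of all AS-99 ASH1L peaks, a difference from the other AS-99 peaks of -6.84 points (-10.5 to -2.96). By class, this difference was -10.8 points (-17.1 to -4.86) against peaks within 1 kb of a gene start and -7.64 (-12.0 to -3.22) against distal intergenic peaks. Against AS-99 peaks 1 to 10 kb from a gene start it was -1.19 points (-6.85 to 3.94). The share of DMSO members listed again rose with pileup, from 5.13% (6 of 117) at 12 fragments or fewer to 7.44% (23 of 309) at 13 to 15, 11.7% (37 of 316) at 16 to 19, 17.4% (27 of 155) at 20 to 24 and 20.6% (13 of 63, 11.5 to 32.7) at 25 or more. Other ASH1L peaks with a pileup of 25 or more were listed again in 85 of 188 cases, or 45.2% (38.0 to 52.6), so that members stood -24.6 points (-35.4 to -11.1) below them, while in the lower DMSO classes the intervals of the difference held 0. This class is open at the top, where other peaks reached a pileup of 3598 and members 235, with medians of 28 and 27. At 25 to 29 fragments alone the shares were 18.6% (8 of 43) and 34.7% (42 of 121), a difference of -16.1 points (-28.6 to -0.0234). Without peaks within 1 Mb of an assembly gap and without windows of repeated sequence, described further on, the DMSO shares were 15.7% (8 of 51) and 36.3% (45 of 124), a difference of -20.6 points (-32.1 to -5.95). AS-99 members of 25 or more gave 6 of 14, or 42.9%, against 48 of 60, or 80%, of the other AS-99 peaks, a difference of -37.1 points (-60.1 to -9.91), which was -20.8 points (-47.9 to 11.3) without peaks near gaps and -36.4 points (-60.5 to -0.505) without windows of repeated sequence as well. At 13 to 15 fragments AS-99 members stood -7.59 points (-12.4 to -2.20) below the other AS-99 peaks, and in the remaining AS-99 classes the intervals held 0.

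Members with 55% GC or more were listed again with AS-99 in 28 of 330 cases, or 8.48%, and members below 55% in 78 of 630, or 12.4%, a difference of -3.90 points (-7.68 to 0.322). From the side of the AS-99 list the order was the opposite: 31 of 122 members with 55% GC or more had a DMSO peak, or 25.4%, against 75 of 513, or 14.6%, a difference of 10.8 points (3.14 to 19.6). Both sides count the same overlapping peaks over lists of different length, so the second is not a separate result. In distal intergenic AS-99 peaks the share was also highest at 55% GC or more, at 35.4%, against 19.6% below 40% and 23.4% between. Members at internal transcript starts were listed again in 12 of 182 cases, or 6.59%, against 94 of 778, or 12.1%, away from them, a difference of -5.49 points (-9.21 to -0.451). From the side of the AS-99 list there was no such difference. There 14 of 87 members at internal starts had a DMSO peak, or 16.1%, against 92 of 548, or 16.8%, a difference of -0.696 points (-7.80 to 8.88).

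**Figure D3:**
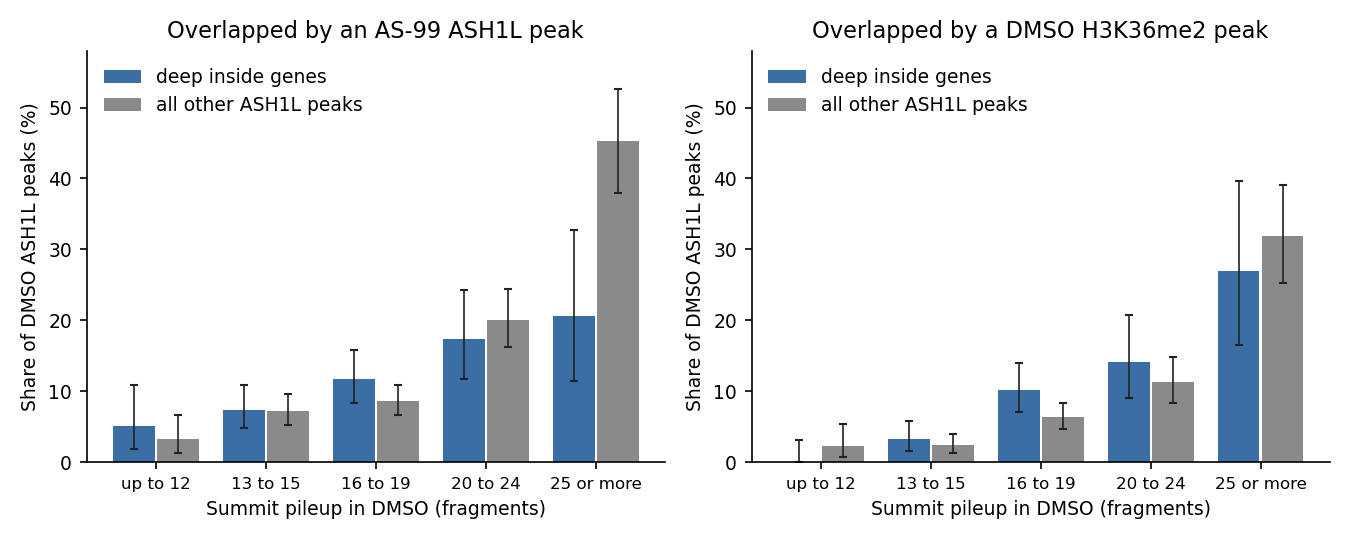
Share of DMSO ASH1L peaks (y axis, percent) that were overlapped by an AS-99 ASH1L peak and by a DMSO H3K36me2 peak, by summit pileup in fragments (x axis), for members and all other ASH1L peaks with 95% Clopper-Pearson intervals. At 25 fragments or more, 20.6% of members and 45.2% of other peaks were listed again, while the shares with H3K36me2, 27.0% in members, rose with pileup in a like way.

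H3K36me2 peaks overlapped a small share of members. Of DMSO members, 81 of 960 had a DMSO H3K36me2 peak, or 8.44% (6.76 to 10.4), close to the 8.17% of all DMSO ASH1L peaks, and of AS-99 members 33 of 635 had an AS-99 H3K36me2 peak, or 5.20% (3.6 to 7.22), beside 7.17% of all AS-99 ASH1L peaks. The DMSO share was 6.55 points (4.52 to 8.62) above that of peaks within 1 kb of a gene start, of which 1.89% had an H3K36me2 peak, and -5.13 points (-7.97 to -2.32) against distal intergenic peaks, of which 13.6% did. With AS-99 the difference from distal intergenic peaks was -5.41 points (-8.42 to -2.46), while that from peaks within 1 kb of a gene start was -0.910 points (-4.78 to 2.16). The contrast with peaks at gene starts was thus seen in DMSO only. Against peaks 1 to 10 kb from a gene start the intervals held 0 under both treatments, at 1.79 points (-1.38 to 4.55) in DMSO and 0.452 (-3.07 to 3.25) in AS-99. Pileup moved with the overlap: it was 0 of 117 DMSO members at 12 fragments or fewer, which allows a share of up to 2.56% by the limit of 3 counts and 3.10% by the Clopper-Pearson bound, 10 of 309 at 13 to 15, 32 of 316 at 16 to 19, 22 of 155 at 20 to 24, and 17 of 63, or 27.0%, at 25 or more. Where both peaks were present, the ASH1L and H3K36me2 summits lay a median of 107 bp apart in DMSO, within 100 bp at 36 of the 81, and 117 bp apart in AS-99. The H3K36me2 pileup at these members was 12 to 47 (median 20) in DMSO and 12 to 102 (median 16) in AS-99. DMSO members with an H3K36me2 peak were listed again with AS-99 in 17 of 81 cases, or 21.0% (12.7 to 31.5), against 89 of 879, or 10.1% (8.21 to 12.3), without one, a difference of 10.9 points (3.10 to 21.1). Their median pileup was 19, against 16 without one, and the part of height in this difference was not tested.

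At the 106 members present under both treatments, the depth-scaled pileup, in fragments over the summit per 1000000 filtered fragments, was higher with AS-99 in 82 and lower in 24, beside 70.5% higher among all 383 matched ASH1L pairs. The median log2 ratio of AS-99 to DMSO was 0.24 (0.13 to 0.35) over members and 0.17 (0.13 to 0.23) over all pairs. With each pileup divided by the genome background of its library instead, the median over members was 0.14 (0.03 to 0.25), and 73 of 106 were higher. A pair enters only when both libraries pass the caller's threshold, which asks for a higher scaled pileup in the shallower AS-99 library. The summits of a pair lay a median of 59 bp apart, and 2 pairs changed by more than 2-fold. IHO1, a gene of meiotic recombination, had a pileup of 15 in DMSO and 25 in AS-99, a log2 ratio of 1.09, and METTL22, a methyltransferase gene, 14 and 23, a log2 ratio of 1.07. SGSM1, which modulates small GTPases, had 16 and 24, a log2 ratio of 0.94. At the other end RPTOR, the scaffold of the mTOR complex, had 29 and 12, a log2 ratio of -0.92, followed by CPQ, a carboxypeptidase gene, with 36 and 16 (-0.82), in a window of which 95.2% of the 32-base words are repeated in the reference.

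**Figure D4:**
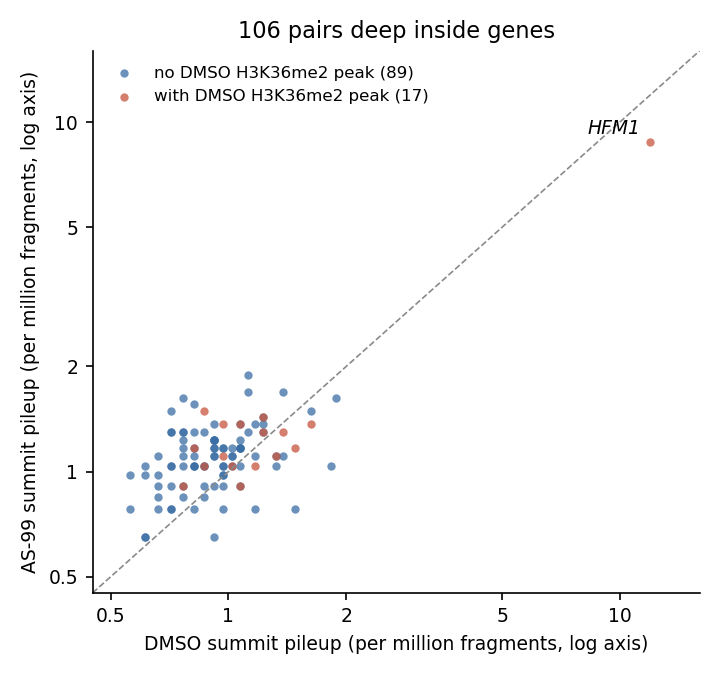
Summit pileup per 1000000 filtered fragments in DMSO (x axis) and AS-99 (y axis), both on log axes, at the 106 members matched between the lists, with the dashed line marking equal values. Most points (82) lie above the line, and HFM1, at 12 and 8.78, stands apart from all others.

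The strongest member under both treatments was in intron 4 of HFM1, at chr1:91852797-91853133 in DMSO, with a pileup of 235 fragments and a fold enrichment of 23.9, and 135 fragments and 20.2-fold in AS-99. Scaled to depth these were 12 and 8.78, a log2 ratio of -0.45, and the region was present in all 4 lists. Its sequence is not unique: 98.5% of the 32-base words in the 300 bp around the summit occur more than once in the reference, with a median of 3 copies, and most further matches lie on an unplaced sequence of 161802 bp. The DMSO peak in intron 6 of SLCO5A1, an organic anion transporter gene, with a pileup of 58, had 71% repeated words and matched the same unplaced sequence. In ARMC9, a gene of the ciliary base, the peak of pileup 32 had 63.2% repeated words. The words of the CPQ window had a median of 5793 copies. Repeated words also made up 53.2% of the DMSO window in SIPA1L3 and 61.3% of that in AFF3, both named further on. Such windows were few among members: 44 in DMSO, or 4.58% (3.35 to 6.10), and 39 in AS-99, or 6.14%, had repeated words over at least 50% of their length, against 8.70% and 10.7% of windows 2 kb to the side.

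Most of the other DMSO members among the 10 strongest had no AS-99 ASH1L peak. PPCDC, an enzyme of coenzyme A synthesis, carried a peak of pileup 41 in coding exon 3 (chr15:75335624-75336061), with H3K36me2 peaks under both treatments and no AS-99 ASH1L peak. UBE2V1, a ubiquitin-conjugating enzyme variant, had a pileup of 30 and SIRPD, a signal regulatory protein gene, of 31, both in intron 2 and both without an AS-99 peak. ERCC1 went from 37 to 25 and was the one besides HFM1 and CPQ among the 10 strongest that was listed under both treatments. CASR, the calcium-sensing receptor, had a pileup of 33 and an H3K36me2 peak, while NBN, a double-strand break repair gene, had 31 and none.

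In AS-99, the strongest members after HFM1 were in intron 1 of SLA, an adaptor of immune receptor signalling (pileup 37, with H3K36me2), intron 20 of DGKG, a diacylglycerol kinase (28), and intron 12 of TIAM1, an activator of the GTPase RAC1 (25). None of the 3 had a DMSO ASH1L peak. The peak in ZFPM2, a cofactor of GATA proteins, had a pileup of 27 and that in RAP1A, a small GTPase, 28. SIPA1L3, which acts on such GTPases, had 29, and RAB27A 26, both listed under both treatments and with AS-99 H3K36me2. BAALC, a gene expressed in acute leukemia, held an AS-99 peak of pileup 23 with H3K36me2 in intron 1 and no DMSO peak. Among DMSO members with H3K36me2, DAAM1 (24), PAK4, a kinase of the cytoskeleton (29), and REEP1 (26) were listed again, whereas ACTN4, an actin crosslinker (34), AXIN1, a scaffold of the Wnt pathway (27), and PITPNC1, a lipid transfer protein (24), were not.

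Members were spread thinly over genes. The 2 lists together held 1489 distinct regions, 106 of them in both, in 1271 genes, or 9.39% of the 13534 protein-coding genes that have sequence meeting the rule. DMSO members lay in 887 genes and AS-99 members in 603, with 219 genes in common, 24.7% of the first and 36.3% of the second. At least 2 regions were found in 239 genes and at least 3 in 41. Only 36 DMSO members (3.75%) and 20 AS-99 members (3.15%) lay within 10 kb of another member of the list.

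RUNX1, a master transcription factor of blood formation, held the most regions, 8 over 1187 kb of sequence that meets the rule. The 6 DMSO peaks had pileups of 14, 26, 23, 21, 18 and 16 from the lowest to the highest coordinate, and those at chr21:36880991-36881354 and chr21:37110465-37110936 were marked by H3K36me2 peaks in DMSO. With AS-99 there were 3 peaks, with pileups of 16, 16 and 15, and only the region at chr21:36238088-36238451 in intron 5 was in both lists, at 26 fragments in DMSO and 16 in AS-99. FLI1, an ETS factor of blood and vessel cells, held 3 DMSO peaks (14, 11 and 13) and 1 AS-99 peak (13) in intron 1, at 4 separate places. RAPGEF1, an activator of the GTPase RAP1, held 5 regions, of which the one at chr9:134583422-134583735 was in both lists, at 16 and 18. RRBP1, a ribosome-binding protein of the endoplasmic reticulum, had the densest set after ERCC1 among the genes with at least 3, 6.82 regions per 100 kb against 7.25. Its DMSO peaks had pileups of 17, 17 and 11 and its AS-99 peak, at another place, of 14.

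Some genes held members of 1 treatment only. FHIT, a large gene at a fragile site, held 3 AS-99 peaks (22, 13 and 19) and TRPC4, a cation channel gene, 3 (9, 11 and 11), with none in DMSO. In contrast, FOXN3, a forkhead repressor, held 3 DMSO peaks (13, 15 and 14), as did FMN1, MCF2L2 and TBC1D5, and none with AS-99. With pileups this low and 1 library per group, these patterns are listed as counts.

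The gene lists of the MLL1 pathway held few members, which kept their intervals wide. Over all sequence that meets the rule, DMSO members numbered 0.869 per Mb (0.815 to 0.925) and AS-99 members 0.575 (0.531 to 0.621). Of 14 MLL fusion targets with such sequence, 3 held a DMSO member (the repressor BCL11A, the cell cycle kinase CDK6 and the receptor kinase FLT3, with pileups of 19, 12 and 21) and 1 an AS-99 member (CDK6, pileup 19, at another place), 1.18 (0.244 to 3.46) and 0.395 (0.00999 to 2.20) per Mb. Of 13 genes for MLL1 and its partners, 4 held a DMSO member (AFDN, AFF3, AFF4 and ELL) and 2 an AS-99 member (AFF3 and ELL), with AFF3 in both lists at the same place at 19 and 15. Of 20 genes for H3K36 enzymes and readers, the demethylase genes KDM4B and KDM4C and the reader PHF19 held 5 DMSO members together, and the demethylase gene KDM2A held 1 AS-99 member. The 14 myeloid transcription factors stood highest, at 4.17 per Mb (1.91 to 7.92) in DMSO, from 9 members in FLI1 and RUNX1 alone, and at 2.32 (0.753 to 5.41) in AS-99, where IKZF1 joined them. Of 17 myeloid receptors and signalling genes, FLT3 and the kinase SYK held 1 DMSO member each, and CSF1R and ITGAM 1 AS-99 member each.

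Density also varied along the genome. Chromosome 19, which is GC-rich and dense in genes, held 3.48 members per Mb (2.69 to 4.42) in DMSO and 1.63 (1.11 to 2.32) in AS-99, a ratio of 0.470 (0.296 to 0.730). Chromosome 8 held 1.36 (1.07 to 1.70) and 1.10 (0.839 to 1.42), a ratio of 0.811 (0.567 to 1.16). Chromosome 2 held 54 and 50 members, a ratio of 0.926 (0.617 to 1.39). Chromosome X held the fewest per Mb, 0.133 (0.0490 to 0.290) in DMSO and 0.0222 (0.000563 to 0.124) in AS-99, a ratio of 0.167 (0.00362 to 1.37). Each of these intervals of the ratio holds the 0.661 over all members. The part of chromosome copy number in these densities was not tested.

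**Figure D5:**
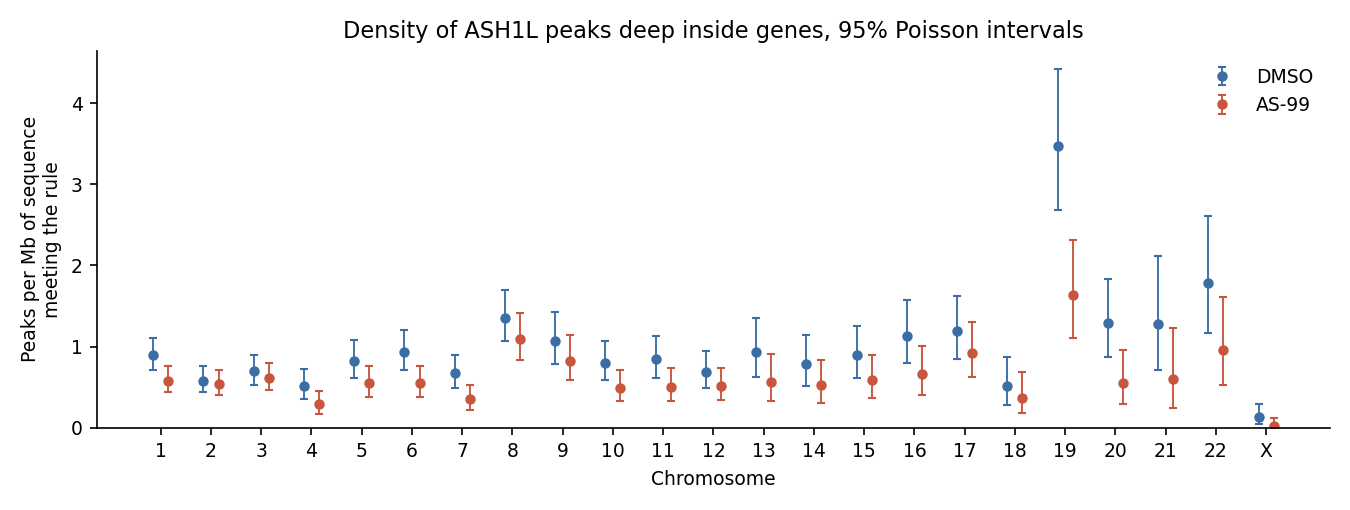
Members per Mb of sequence that meets the rule (y axis) on each chromosome (x axis), for DMSO and AS-99 with 95% Poisson intervals. Chromosome 19 stands highest under both treatments, at 3.48 and 1.63 per Mb, against 0.869 and 0.575 over all chromosomes.

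Members were mostly found in 1 list alone, 771 of 960 in DMSO (80.3%) and 486 of 635 in AS-99 (76.5%), when all 4 lists were searched. This share was not computed over all ASH1L peaks, so it does not set members apart from other ASH1L peaks. Of all ASH1L peaks, 12.5% (DMSO) and 21.1% (AS-99) had a peak of the other treatment, against 11.0% and 16.7% of members. An H3K36me2 peak of the same treatment overlapped 8.17% and 7.17% of all ASH1L peaks, against 8.44% and 5.20% of members. The 5 regions found in all 4 lists, HFM1 and PAK4 among them, made up 0.521% of DMSO and 0.787% of AS-99 members. Without all peaks in such regions, 3026 of 3073 DMSO ASH1L peaks and 955 of 960 DMSO members were left. For AS-99 these were 1765 of 1812 peaks and 630 of 635 members, so members made up a small part of the regions in all 4 lists. Near assembly gaps of at least 50 kb, where repeats collect, lay 115 DMSO and 75 AS-99 members within 1 Mb. Without all peaks this near to a gap, members took 31.6% of DMSO and 35.7% of AS-99 ASH1L peaks, beside 31.2% and 35.0% with them.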

How the data were processed

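CUT&RUN was carried out by the authors on MV4;11 cells with antibodies to ASH1L or H3K36me2, and the data were 4 peak lists, 1 per library. According to the file headers, the authors called peaks with MACS 2.1.0.20150731 at a q-value of 0.01, with at most 2 duplicate fragments, without a control library, and with the local background taken over 10 kb. Mapping used Bowtie2 and hg19, per the study's methods, which name another MACS version and a slightly higher dose of AS-99, and from which it is unclear whether a library pools cultures. The deposited signal is the pileup, the number of fragments over the summit, not scaled to depth. The deposited −log10 p-value and −log10 q-value compare this pileup with a Poisson background, and the deposited fold enrichment is its ratio to that background. Other columns of the deposited files give each peak's length and summit in bp. The −log10 p recomputed from pileup and background differed from the deposited value by less than 0.01 in 99.4% to 99.9% of the peaks of each list.

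From these lists, members were found with GENCODE release 44 on GRCh37 (20098 protein-coding genes on chromosomes 1 to 22 and X). Overlap meant at least 1 bp. GC content, CpG and motifs were read from 300-bp windows at the summit and at 2 kb to either side. The sequence that meets the rule, found on a grid of 50 bp, was read in adjoining 300-bp windows without overlap. Motif shares were also averaged over these adjoining windows in the same 5-point class of GC content. The reference given was not masked for repeats, so repeated sequence was measured by 32-base words. For equal depth, each DMSO pileup and background was multiplied by the ratio of filtered fragments, rounded, and kept when its −log10 p was at least the lowest one listed with AS-99. Count ratios carry exact conditional binomial intervals, shares Clopper-Pearson, differences Newcombe, and medians order-statistic intervals, all at 95%. Fragments carry no molecular identifiers, so intervals cover counting error only. The tools were Python 3.11.15, numpy 2.4.6, pandas 2.3.3, scipy 1.17.1 and matplotlib 3.10.9, and overlap and interval functions were tested on simulated data. With 1 library per group there was no test across samples.

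Named members were the 10 of highest −log10 p in each list, the 10 strongest matched pairs, the 5 strongest unshared, the 10 strongest with H3K36me2, genes with at least 3 regions, genes of the lists, the 3 most and least changed pairs, and the 3 nearest to the limit on each side. The text gives a choice of these. The members, lists and motifs were chosen with earlier results of these data known, and the classes of GC content and of internal starts were set after seeing the data.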

Additional observations from a re-analysis of the deposited data

How the results depend on the processing

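No paired analysis was possible because there was 1 library for each antibody and treatment, and for the same reason no replicate could be left out. Of 77 values under alternatives, 56 lay inside the interval given in the report, 20 outside it and 1 reversed. The AS-99 to DMSO ratio of members was 0.736 with distance taken from every transcript start, 0.913 at a fold enrichment of at least 6 and 1.19, reversed, with the DMSO list cut to its 1829 strongest peaks, the length of the whole AS-99 list, since this leaves out DMSO peaks alone. The share of DMSO peaks that were members was 34.9% and 25.4% at limits of 5 and 20 kb, 15.9% from every transcript start, 28.8% at a −log10 p of at least 10 and 29.5% at equal list lengths. The AS-99 share was 39.2%, 28.8% and 19.9% under the first 3 of these. The share of DMSO members listed again was 7.42% at a −log10 p of at least 10, 5.43% at a fold of at least 6, 8.96% with a reciprocal overlap of 50% and 13.8% at equal lengths, and its difference from the other peaks was -7.77 and -16.5 points under the first 2, -2.70 (-5.02 to -0.251) at a limit of 5 kb and -3.94 (-7.40 to -0.184) at equal lengths, all with intervals below 0, unlike the reported one. The H3K36me2 share of DMSO members was 1.09% at a fold of at least 6, 5.83% with reciprocal overlap and 12.5% at equal lengths, and that of AS-99 members 2.38% at a fold of at least 6. For the results by GC content, 40 further values were computed after seeing the data, and 32 stayed within the interval. The difference in the share of members with 55% GC or more was -10.7 points from every transcript start and -22.3 at a −log10 p of at least 10. The ratio was 2.84 below 40% GC at equal lengths. Between 40% and 55% it was 0.886 at a fold of at least 6 and 1.20, reversed, at equal lengths. At 55% or more it was 0.288 at a −log10 p of at least 10, 0.485 at a fold of at least 6 and 0.598 at equal lengths. Beyond those of equal list length, the causes were not tested. Depth sets the lower end of the lists, where 9 or 10 fragments made a peak.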
